A study of Mus musculus with 24 samples.

Results

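The 37 genes of the mouse mitochondrial chromosome were examined, of 50686 genes counted in each library. They were taken by chromosome and by the symbol prefix mt-, and comprise 13 mRNAs, 2 rRNAs and 22 tRNAs. The 13 mRNAs are the main subject. The study models pantothenate kinase-associated neurodegeneration in mice with 24 RNA-seq libraries, 3 for each combination of genotype, sex and day. All but 1 were used, 23 in all; the one left out, dKO male day 10 replicate 3, held 45964 gene counts. Both genotypes were of the C57BL/6 background and the tissue was labelled "Back left brain". The knockout, called dKO, carried Pank1-/- and Syn-Pank2-/-; Pank1 and Pank2 encode pantothenate kinases, which start coenzyme A synthesis. Syn is a usual shorthand for the promoter of the neuronal gene synapsin, but the labels do not spell it out. The controls were wild type (WT), with no allele named. Mice were female or male and were sampled at day 10 or day 20, without a statement of what the day is counted from. Each genotype and day held 6 libraries, except dKO day 10 with 5 (3 female, 2 male).

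The mitochondrial genome encodes only core subunits of the respiratory chain and ATP synthase, with the rRNAs and tRNAs with which the organelle makes them. Both strands are transcribed as long precursors, from which the tRNAs, lying between the other genes, are cut out so that rRNAs and mRNAs are freed. The mRNAs then receive A tails, which for some of them complete the stop codon. All proteins of this transcription, processing and decay machinery come from nuclear genes. Brain tissue depends heavily on the respiratory chain.

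The 3′ ends of the 5 mRNAs on which the results turn are shown as annotated (24 bases each, GENCODE M21 transcript sequences on GRCm38). Capitals mark the stop codon, or the single T to which the A tail adds the rest of one. mt-Nd1 lies at chrM:2751-3707, mt-Nd2 at chrM:3914-4951, mt-Co1 at chrM:5328-6872, mt-Nd4 at chrM:10167-11544 and mt-Cytb at chrM:14145-15288, all on the + strand.
mt-Nd1: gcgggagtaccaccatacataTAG
mt-Nd2: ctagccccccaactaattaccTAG
mt-Co1: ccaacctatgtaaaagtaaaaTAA
mt-Nd4: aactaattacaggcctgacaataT
mt-Cytb: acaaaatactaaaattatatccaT
mt-Nd1 and mt-Nd2 both encode subunits of respiratory complex I and both end in TAG as annotated. Of the pair, only mt-Nd2 was called between genotypes at day 20 with libraries scaled by TMM. Between them lie the isoleucine tRNA mt-Ti (chrM:3706-3774) and the methionine tRNA mt-Tm (chrM:3845-3913), whose counts also differed. The glutamine tRNA mt-Tq (chrM:3772-3842) sits between these on the - strand. As annotated, mt-Nd1 overlaps the start of mt-Ti, and mt-Nd2 overlaps the start of mt-Tw (tryptophan tRNA, from chrM:4950). The annotated TAG of these genes therefore need not be the end of the freed mRNA. mt-Ti and mt-Tm are printed whole, with no base marked.
mt-Ti: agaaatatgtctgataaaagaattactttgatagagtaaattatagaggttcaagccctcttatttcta
mt-Tm: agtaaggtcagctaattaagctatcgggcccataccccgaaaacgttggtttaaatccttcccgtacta

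Levels are given as CPM (the usual count unit scaled to equal library totals, with TMM library factors), and changes as log2 ± standard error (SE) from edgeR's quasi-likelihood test over 21657 genes. A gene was called where its p, adjusted over all these genes by Benjamini-Hochberg, was under 0.05. Nothing in the labels says how the samples of a group were kept or bred, so p-values measure only the spread between these samples. Library depth ran from 9191988 to 44738612 gene counts. Pank1 was at 6.71 to 8.87 CPM in the dKO libraries and 19.5 to 26.7 CPM in WT, and Pank2 at day 20 was at 38.4 to 46.3 CPM against 52.6 to 61.3 CPM. At day 10 Pank2 was at 44.6 to 52.0 CPM in dKO and 46.3 to 56.3 CPM in WT, which overlap; which exons were deleted is not given in the sources used here. Summed neuron markers were at 2621 to 4062 CPM and cerebellar granule cell markers at 476 to 3573 CPM, while forebrain markers were at 44.3 to 127 CPM. One library stood apart: dKO male day 10 replicate 2 had choroid plexus markers at 11.8 CPM, against 251 or more in every other library of that day, and granule cell markers at 476 CPM, against 1201 or more. It also had the highest mitochondrial levels of its group, so day 10 results are given with and without it where it matters.

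All 13 mRNAs and both rRNAs had counts, but the lowest mRNA, mt-Nd4l (2 to 17 counts per library, a complex I subunit), did not pass the filter on low counts. Of the 22 tRNAs, 10 were at 0 in all 23 libraries and 9 passed. Per kilobase of gene, the highest mean level over the 23 libraries was that of the large rRNA mt-Rnr2, with 24678 CPM per kilobase. The small rRNA mt-Rnr1 followed with 4801, then mt-Co1 (cytochrome oxidase subunit) with 3818, mt-Cytb (cytochrome b of complex III) with 1447 and mt-Nd1 with 1319 CPM per kilobase. The complex I subunits mt-Nd2, mt-Nd4 and mt-Nd5 had 412, 397 and 331 CPM per kilobase, which lie close to each other, and mt-Nd6 had 68.6. The remaining 6 mRNAs, mt-Co3, mt-Co2, mt-Atp6, mt-Atp8, mt-Nd3 and mt-Nd4l, lay between 0.869 and 24.9 CPM per kilobase; for 5 of these 6 a nuclear copy of nearly the whole gene exists, as described further on.

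At day 20, 4 mitochondrial mRNAs were lower in dKO than in WT: mt-Nd2, mt-Nd4, mt-Cytb and mt-Co1, encoding subunits of complexes I, III and IV. No mRNA was higher. These were 4 of 12 tested mRNAs (of 13), read against 38% of all tested genes called at that day (18.8% higher and 19.2% lower). The median change over the 12 mRNAs was -0.16, beside -0.0003 over all genes tested. In bulk tissue, fewer cells of a type and less RNA per cell cannot be told apart.

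mt-Nd2 was at 464, 529 and 606 CPM (lowest, median and highest of 6) in WT at day 20 and at 323, 386 and 413 CPM in dKO. All dKO libraries were below all WT libraries. How many of all tested genes separate the genotypes in this way was not counted. mt-Nd2 was 27.8% lower in dKO than in WT (log2 change -0.47 ± 0.06, adjusted p = 5.59e-06). mt-Nd4, another membrane subunit of complex I, was at 623, 689 and 771 CPM in WT and 469, 550 and 591 CPM in dKO. These groups did not overlap either, and mt-Nd4 was 20.5% lower in dKO (log2 change -0.33 ± 0.06, adjusted p = 0.000259). mt-Cytb, the only mitochondrially encoded subunit of complex III, was at 1758, 1868 and 2011 CPM in WT and 1385, 1558 and 1698 CPM in dKO. The 2 groups were separate, and mt-Cytb was 17.1% lower in dKO (log2 change -0.27 ± 0.05, adjusted p = 0.000151). mt-Co1, the catalytic subunit of cytochrome oxidase, was at 6173, 6669 and 7078 CPM in WT and 5311, 5780 and 6253 CPM in dKO. One dKO library lay above the lowest WT library, and mt-Co1 was 13.9% lower in dKO (log2 change -0.22 ± 0.05, adjusted p = 0.00121). The same count of 4 lower mRNAs was obtained with each library of day 20 left out in turn.

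**Figure D1:**
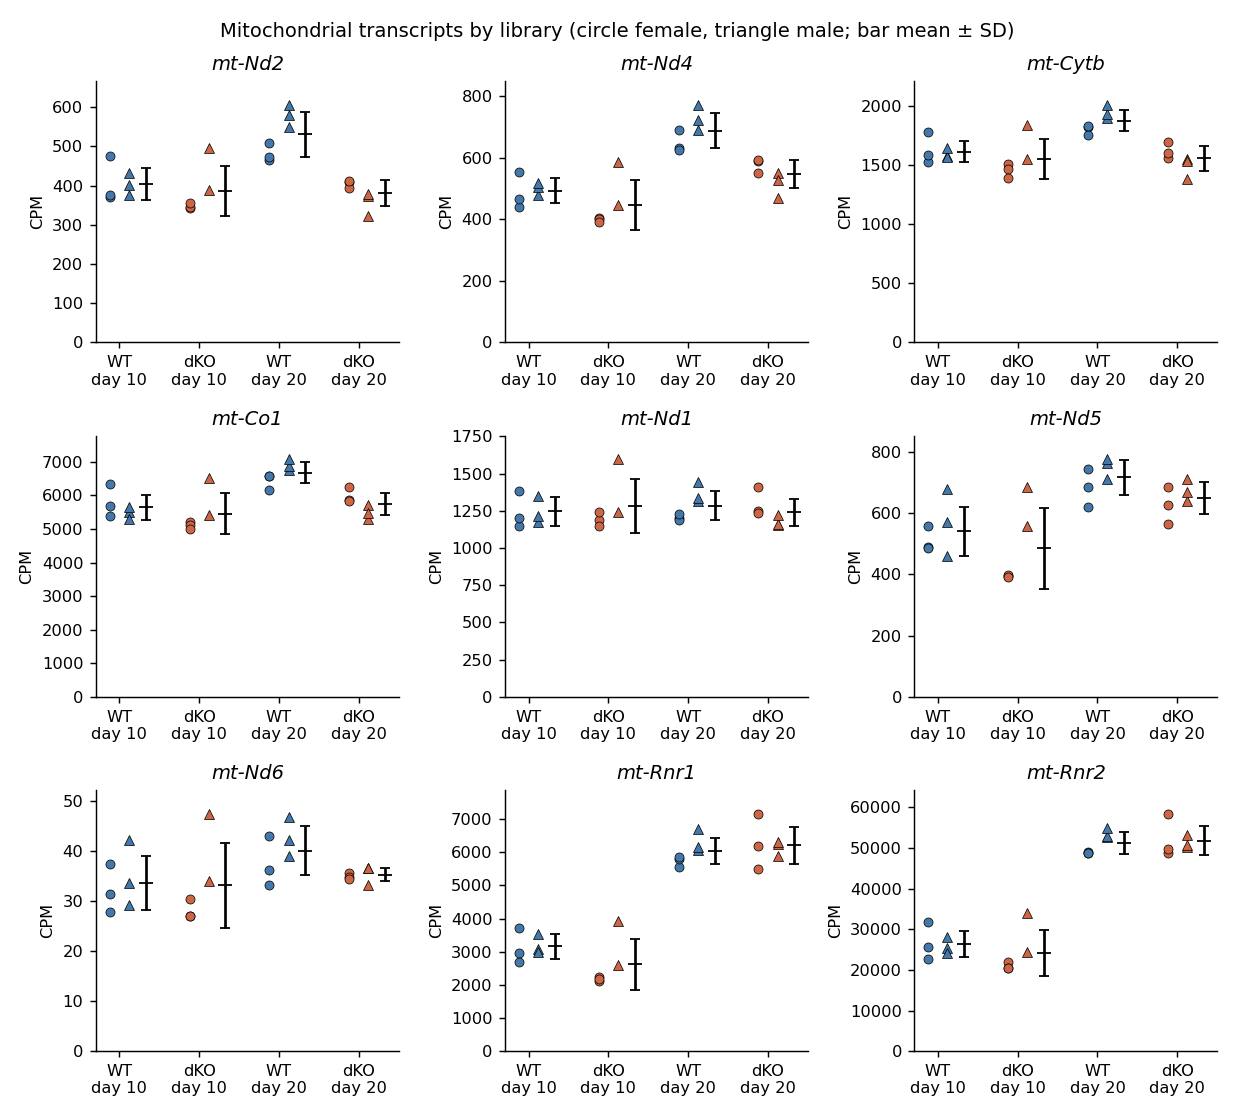
Levels (CPM, linear axes from 0) of 7 mitochondrial mRNAs and both rRNAs in each of the 23 libraries, by genotype and day; circles are females, triangles males, and bars give the mean ± SD. At day 20 the dKO libraries lie below the WT libraries for mt-Nd2 (323 to 413 against 464 to 606 CPM), mt-Nd4 and mt-Cytb, while mt-Nd1 and the rRNAs overlap.

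The other mRNAs were not called at day 20. mt-Nd1, the complex I subunit encoded just before mt-Nd2, was at 1189, 1270 and 1441 CPM in WT and 1154, 1231 and 1406 CPM in dKO, with a change of -0.05 ± 0.06 (adjusted p = 0.535). mt-Nd5 had a change of -0.14 ± 0.08 (adjusted p = 0.152) and mt-Nd6 one of -0.18 ± 0.09 (adjusted p = 0.129), with overlapping groups in both cases. Both were called lower when only the libraries of day 20 were fitted (adjusted p = 0.0297 and 0.0167). For mt-Co2, mt-Co3, mt-Atp6, mt-Atp8 and mt-Nd3 the changes lay between -0.25 and 0.07, with SEs of 0.13 to 0.25, so changes of the size seen for mt-Nd4 were not detectable for most of them. A p above the threshold does not show that these mRNAs were at the same level.

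The day 20 differences had larger fitted values in males. In males, mt-Nd2, mt-Nd4, mt-Cytb and mt-Co1 were called lower, 4 of 12 mRNAs, beside 34.6% of all genes called (17.3% lower). mt-Nd2 was at 550, 606 and 580 CPM in the 3 WT males and at 323, 373 and 378 CPM in the 3 dKO males, a change of -0.69 ± 0.09 (adjusted p = 5.03e-06). All 12 tested mRNAs had negative values in males, from -0.78 (mt-Nd3) to -0.15 (mt-Nd5). In females edgeR called 0 of 12 mRNAs, with 5 at an unadjusted p under 0.05, beside 10.4% of all genes called (5.18% lower). mt-Nd2 was at 508, 464 and 473 CPM in the 3 WT females and at 410, 394 and 413 CPM in the 3 dKO females, a change of -0.25 ± 0.09 (adjusted p = 0.0846). The dKO females, too, were below all WT females for mt-Nd2. The difference between the sexes was tested as an interaction: 0 mRNAs were called, 10 of 12 had an unadjusted p under 0.05, and 0% of all genes were called. For mt-Nd2 this interaction was -0.44 ± 0.13 (adjusted p = 0.114), so a difference between the sexes was not shown. WT males at day 20 also had more mt-Nd2 than WT females, by 0.26 ± 0.09, which was not called (adjusted p = 1).

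The balance between neighbouring mt-Nd1 and mt-Nd2 was read within each library as the ratio of their counts, which library scaling does not affect. In WT at day 20, mt-Nd2 had 0.385 to 0.454 counts per mt-Nd1 count. In dKO at day 20 the ratio was 0.280 to 0.333, with no overlap, in both sexes. At day 10 it was 0.312 to 0.343 in WT and 0.286 to 0.314 in dKO, where the ranges met. The dKO ratios at day 20 overlapped those of both genotypes at day 10, and the WT ratios at day 20 lay above all others. No test was made of this ratio, which was chosen after the single genes had been seen.

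The tRNA genes between the pair had low counts, 485 for mt-Ti and 162 for mt-Tm over all 23 libraries. At day 20 mt-Ti had 25, 15 and 29 counts in WT females and 62, 23 and 48 in WT males, against 11, 13 and 5 in dKO females and 6, 4 and 6 in dKO males. Pooled over libraries this was 1.30 CPM in WT and 0.343 CPM in dKO, with TMM factors. mt-Ti fell by 73.1% (log2 change -1.89 ± 0.27, adjusted p = 8.95e-06). mt-Tm had 10, 14, 5, 20, 6 and 18 counts in the 6 WT libraries and 7, 6 and 1 in dKO females. All 3 dKO male libraries were at 0 counts of mt-Tm. A floor of 3 counts over that group is 0.0466 CPM, which is 10.95-fold below the 0.511 CPM pooled in WT males. This fold leaves out the uncertainty of the WT value and is no lower bound. From counting alone, the 95% limits of mt-Tm were 0.371 to 0.686 CPM in WT males and 0 to 0.0573 CPM in dKO males. Over both sexes the test called mt-Tm lower (adjusted p = 0.000276); its fitted size depends on the prior count and is not given.

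At day 10 neither tRNA was called: mt-Ti was at 0.884 CPM in WT and 0.959 CPM in dKO, and mt-Tm at 0.316 and 0.228 CPM, pooled. Of the 9 tested tRNAs, mt-Ti and mt-Tm were lower at day 20 and another 2 were higher, beside 19.2% of all genes lower and 18.8% higher. mt-Tt, the threonine tRNA, was at 0.834, 1.52 and 1.88 CPM in WT and 2.10, 2.29 and 2.91 CPM in dKO, with no overlap. The higher ones were mt-Tt (0.74 ± 0.19, adjusted p = 0.00356) and the proline tRNA mt-Tp (0.44 ± 0.16, adjusted p = 0.0398), which lie side by side on opposite strands at chrM:15289-15355 and chrM:15356-15422. The call of mt-Tp was lost in the unstranded column, with no filter (adjusted p = 0.0553) and with any of 8 libraries left out. The most abundant tRNAs, mt-Tp, mt-Tq and mt-Tw (tryptophan), averaged 2.54, 2.22 and 2.17 CPM, and mt-Tq (-0.17 ± 0.16) and mt-Tw (0.02 ± 0.20) were not called. These libraries selected RNA with A tails, so counts over a tRNA gene need not come from the mature tRNA. In the unstranded count column, mt-Ti, mt-Tm, mt-Tq and mt-Tw had 0 counts in all 23 libraries and mt-Tt had 1 count in all, so none of these can be checked there. mt-Tp had 14527 counts there, beside 1383 on its own strand and 15162 on the opposite strand. Its unstranded value is thus largely that of the opposite strand. Reads that overlap several genes, and so count for none, were 0.589 to 0.785% of reads in dKO and 0.703 to 1.05% in WT at day 20; their part in the tRNA differences was not tested.

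**Figure D2:**
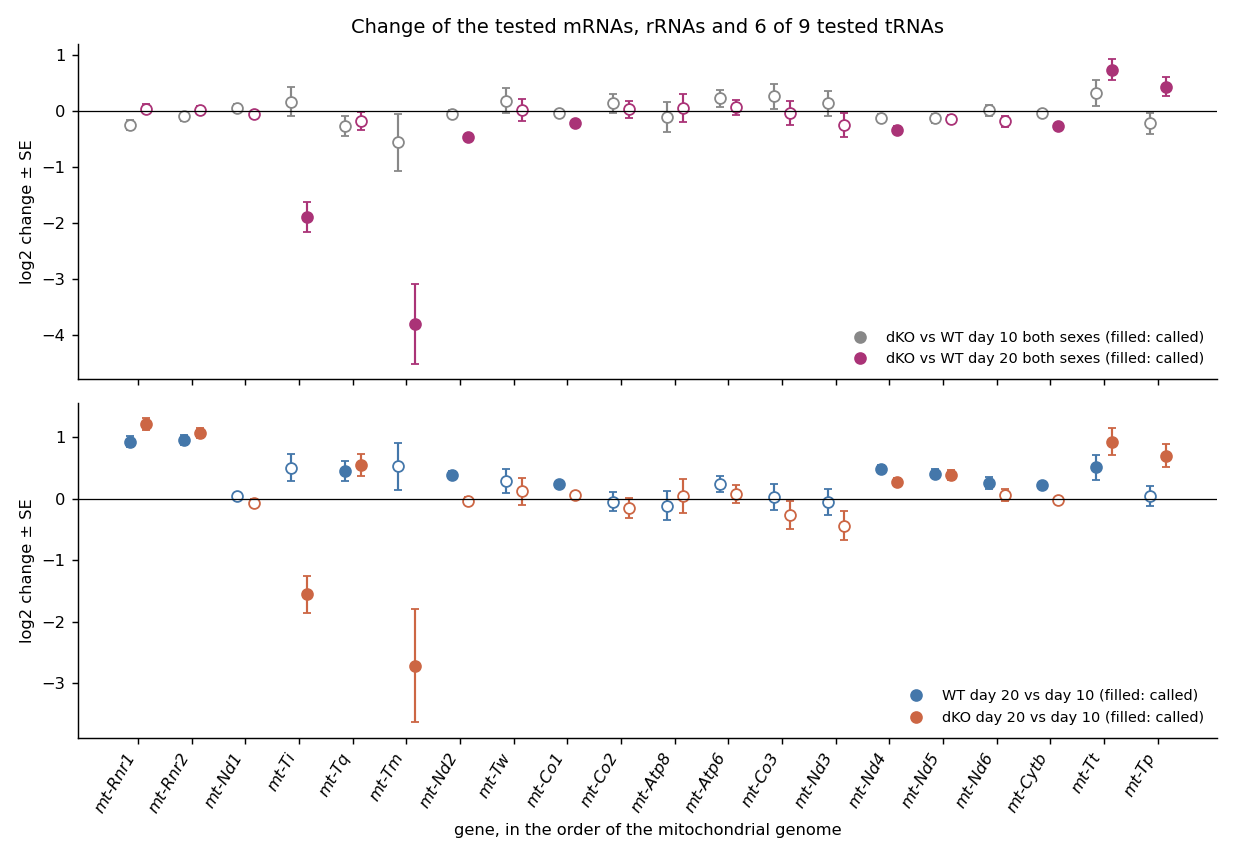
Log2 change ± SE of the 12 tested mRNAs, both rRNAs and the 6 named tRNAs, in genome order: above, dKO against WT at day 10 (grey) and day 20 (purple); below, day 20 against day 10 in WT and in dKO; filled points were called. At day 20 mt-Ti (-1.89), mt-Tm and mt-Nd2 (-0.47) lie below 0 between mt-Nd1 and mt-Co1 (the fitted size of mt-Tm depends on the prior count), and both rRNAs are near 0 (0.04 and 0.02).

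Both rRNAs, the RNA of the organelle's ribosomes, were not called between genotypes at day 20. Since RNA with A tails was selected, these counts need not follow the total amount of either rRNA. mt-Rnr2 was at 48721, 50847 and 54833 CPM in WT and 48697, 50454 and 58460 CPM in dKO (0.02 ± 0.08, adjusted p = 0.863). mt-Rnr1 was at 5563, 5971 and 6689 CPM in WT and 5490, 6213 and 7155 CPM in dKO (0.04 ± 0.09, adjusted p = 0.728). Since the mRNAs were lower, the rRNAs per mRNA count differed: 4.71 to 5.004 in WT and 5.28 to 6.02 in dKO, with no overlap. The 13 mRNAs made up 1.04 to 1.21% of gene counts in WT and 0.896 to 1.06% in dKO at day 20, ranges that overlapped slightly. The rRNAs made up 5.12 to 6.26% of gene counts over both genotypes at day 20.

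**Figure D3:**
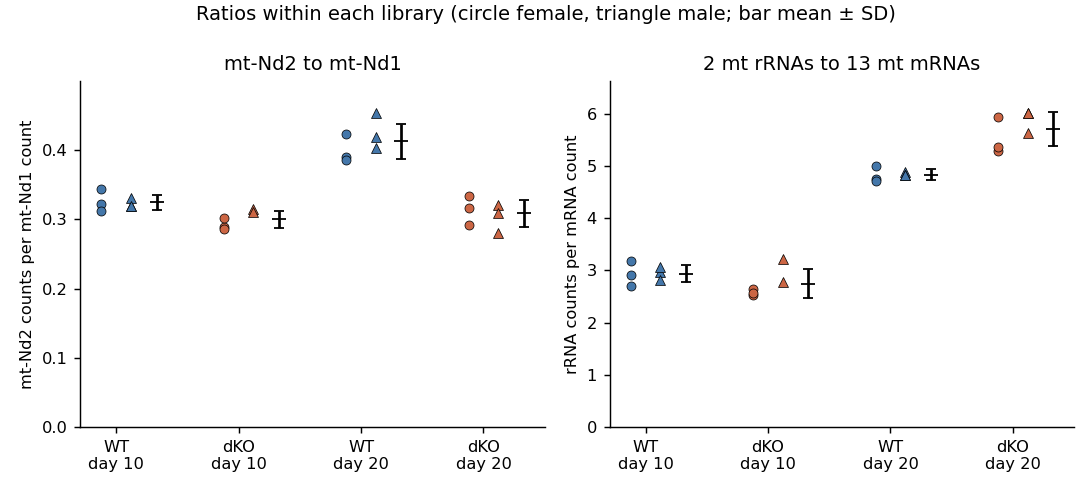
Ratios of counts within each library: mt-Nd2 per mt-Nd1 (left) and the 2 rRNAs per 13 mRNAs (right), linear axes from 0; circles are females, triangles males, bars the mean ± SD. At day 20 dKO has lower mt-Nd2 per mt-Nd1 (0.280 to 0.333 against 0.385 to 0.454) and more rRNA per mRNA (5.28 to 6.02 against 4.71 to 5.004).

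At day 10 no mitochondrial transcript was called between the genotypes by edgeR: 0 of 12 mRNAs (0 at an unadjusted p under 0.05), 0 of 2 rRNAs (1 at an unadjusted p under 0.05) and 0 of 9 tRNAs (0), beside 4.99% of all genes called (3.23% higher, 1.76% lower). mt-Nd2 was at 371, 388 and 474 CPM in WT and at 343, 355 and 495 CPM in dKO, with overlapping groups and a change of -0.05 ± 0.07 (adjusted p = 0.738). mt-Nd4 was at 439, 492 and 552 CPM in WT and 391, 404 and 585 CPM in dKO (-0.12 ± 0.07, adjusted p = 0.283). mt-Cytb had a change of -0.04 ± 0.05 and mt-Co1 one of -0.03 ± 0.05. The values for the other 8 tested mRNAs ran from -0.12 for mt-Nd5 to 0.26 for mt-Co3. mt-Rnr1 had the rRNA value furthest from 0, with 2696, 3040 and 3712 CPM in WT and 2111, 2243 and 3925 CPM in dKO (-0.24 ± 0.09, adjusted p = 0.112), and the highest dKO value was that of the library that stood apart. Without that library the count of called mRNAs was again 0, while the count of all genes called at day 10 was 15 (4514 without dKO male day 10 replicate 1).

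By sex, day 10 females had 0 of 12 mRNAs called, with 7 at an unadjusted p under 0.05, and 0 of 2 rRNAs, with 2 (0.319% of all genes called). mt-Rnr1 had a value of -0.52 ± 0.12 in females (adjusted p = 0.0599) and mt-Nd5 one of -0.37 ± 0.11 (adjusted p = 0.0905). In day 10 males, with 2 dKO libraries, 0 of 12 mRNAs were called and 0 had an unadjusted p under 0.05 (0.0139% of all genes called). The interaction of genotype and sex at day 10 gave 0 calls (0% of all genes), with 7 of 12 mRNAs at an unadjusted p under 0.05, and was 0.55 ± 0.18 for mt-Rnr1 (adjusted p = 0.343).

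From day 10 to day 20, 6 of 12 tested mRNAs rose in WT and 2 of 12 in dKO, beside 50.4% of all genes called in WT (25.5% higher) and 61.6% in dKO (30.4% higher). In WT these were mt-Nd4 (0.48 ± 0.06, adjusted p = 1.33e-06), mt-Nd5 (0.41 ± 0.08), mt-Nd2 (0.38 ± 0.06), mt-Nd6 (0.26 ± 0.09, adjusted p = 0.0261, lost in 7 of 22 alternatives), mt-Co1 (0.24 ± 0.05) and mt-Cytb (0.22 ± 0.05). 4 of the 6 encode complex I subunits, as do 6 of the 12 tested mRNAs. In dKO they were mt-Nd5 (0.39 ± 0.08, adjusted p = 0.000238) and mt-Nd4 (0.27 ± 0.07, adjusted p = 0.00161). Without dKO male day 10 replicate 2, mt-Co1 was called higher in dKO as well (0.12 ± 0.05, adjusted p = 0.0492). mt-Nd2 had a change of -0.04 ± 0.07 and mt-Cytb one of -0.02 ± 0.05 in dKO. mt-Nd1 changed in neither genotype by the test, with 0.04 ± 0.06 in WT and -0.07 ± 0.06 in dKO. With libraries scaled by total count alone, the median of all genes shifted to -0.14 in WT and -0.16 in dKO, and in dKO mt-Nd2 (-0.19), mt-Nd1 (-0.22), mt-Cytb (-0.16) and mt-Nd3 (-0.59) were then called lower and only mt-Nd5 higher.

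In these libraries of RNA with A tails, the counts of both rRNAs rose with day in both genotypes, with larger fitted values than any mRNA. mt-Rnr2 went from 22797, 25653 and 31744 CPM to the day 20 values above in WT (0.96 ± 0.08, adjusted p = 8.55e-10) and from 20443, 21907 and 34047 CPM in dKO (1.07 ± 0.08, adjusted p = 2.2e-10). mt-Rnr1 rose by 0.93 ± 0.09 in WT and 1.22 ± 0.10 in dKO. No day 10 library reached the lowest day 20 library in either genotype. As a share of gene counts the rRNAs went from 2.44 to 3.90% at day 10 to 5.12 to 6.26% at day 20. Summed oligodendrocyte markers rose as well, from 6215 to 12503 CPM at day 10 to 15719 to 20463 CPM at day 20 in WT (9 of 10 higher, and 7 of 10 in dKO). In dKO 6 of 6 Purkinje and 6 of 8 granule cell markers rose with day (medians 1.29 and 0.98), while 5 of 7 forebrain and 6 of 6 erythroid markers fell (medians -1.23 and -2.25). In WT 3 of 6 Purkinje and 2 of 8 granule cell markers rose, 3 of 7 forebrain markers fell and edgeR called 0 of 6 erythroid markers (0 at an unadjusted p under 0.05). The part of these shifts in the mitochondrial changes with day, and in their difference between genotypes, was not tested.

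The change with day differed between genotypes for 2 mRNAs and 2 tRNAs, by the interaction of genotype and day, beside 28.3% of all genes called (14.7% lower). For mt-Nd2 it was -0.42 ± 0.09 (adjusted p = 0.00187): it rose in WT by 0.38 and had a value of -0.04 in dKO. For mt-Cytb it was -0.23 ± 0.07 (adjusted p = 0.0185), and this call was lost without dKO male day 10 replicate 2 (-0.15, adjusted p = 0.116). mt-Ti had an interaction of -2.06 ± 0.38 (adjusted p = 0.000372). mt-Tm was called lower too (adjusted p = 0.02), but not without dKO female day 10 replicate 1 (adjusted p = 0.0802) or without dKO male day 10 replicate 2 (adjusted p = 0.0637). mt-Nd4 (-0.21 ± 0.09, adjusted p = 0.0925), mt-Co1 (-0.19 ± 0.07, adjusted p = 0.0525) and mt-Rnr1 (0.29 ± 0.13, adjusted p = 0.096) were not called. Without dKO male day 10 replicate 2, mt-Rnr1 was called (0.47 ± 0.11, adjusted p = 0.00401). Without dKO male day 10 replicate 1, mt-Nd4 (-0.30, adjusted p = 0.00702) and mt-Co1 (-0.25, adjusted p = 0.00489) were called, and likewise without WT female day 10 replicate 3 (-0.26 and -0.22). mt-Co1 was also called without dKO female day 20 replicate 1 or WT male day 10 replicate 3 (-0.20 each), and in 4 other settings: library size only (adjusted p = 0.0358), limma-voom (0.0343), counts from the unstranded column (0.0414) and a filter at a mean of 1 CPM (0.0496).

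To compare the mRNAs with each other, the same test was run with the summed count of the 13 mRNAs in place of library size. This sum is mostly mt-Co1 (54.6 to 57.6% of it), so mt-Co1 sits near 0 by construction, and the values of the 13 are not independent. At day 20 mt-Nd2 was also lower in dKO relative to the other mitochondrial mRNAs (-0.25 ± 0.05, adjusted p = 0.00018), and mt-Nd1 was higher (0.17 ± 0.04, adjusted p = 0.00372). mt-Nd4 was called lower (-0.11 ± 0.05, adjusted p = 0.0433), a call lost in 11 of 18 alternatives. On this scale 45.2% of all genes were called (38.9% higher, 6.32% lower) and the median of all genes was 0.22. The rRNAs were higher, mt-Rnr1 by 0.26 and mt-Rnr2 by 0.24 ± 0.05 (adjusted p = 0.00022), close to that median; the call of mt-Rnr1 was lost with all 24 libraries (adjusted p = 0.077). mt-Cytb had -0.05 ± 0.04 (adjusted p = 0.278), so its difference from the summed mRNAs was not called.

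By sex on this scale, day 20 males had mt-Nd2 (-0.36 ± 0.07, adjusted p = 0.000199) and mt-Nd4 (-0.16 ± 0.06, adjusted p = 0.0467) lower and both rRNAs higher, beside 45.6% of all genes called (41% higher, 4.63% lower). Day 20 females had 2 of 12 mRNAs higher, mt-Nd1 (0.20 ± 0.06, adjusted p = 0.0459) and mt-Atp6 (0.54 ± 0.17, adjusted p = 0.0453), beside 8.41% of all genes called (6.59% higher), and mt-Nd2 had -0.15 ± 0.07 (adjusted p = 0.185). At day 10, 0 of 12 mRNAs were called by edgeR, with 0 at an unadjusted p under 0.05, and mt-Rnr1 was lower (-0.22 ± 0.06, adjusted p = 0.0305), beside 5.38% of all genes (0.605% lower). That call was lost in 7 of 17 alternatives.

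With day, mt-Nd1 fell relative to the other mitochondrial mRNAs in both genotypes, by 0.20 in WT (adjusted p = 0.000499) and by 0.12 in dKO (adjusted p = 0.0295). The dKO call was lost with no filter (adjusted p = 0.204), with all 24 libraries (0.0577) and without dKO female day 10 replicate 3, dKO male day 10 replicate 2, dKO female day 20 replicate 3 or dKO male day 20 replicate 2 (0.0691 to 0.111). mt-Nd4 (0.24 and 0.22) and mt-Nd5 (0.17 and 0.34) rose in both, and mt-Nd2 rose in WT (0.14 ± 0.05, adjusted p = 0.0148) with a value of -0.09 ± 0.05 in dKO. With no filter the WT calls of mt-Nd2 (adjusted p = 0.111) and mt-Nd5 (0.0509) were lost, and that of mt-Nd5 also without WT female day 10 replicate 2, WT male day 10 replicate 1, WT female day 20 replicate 3 or WT male day 20 replicate 1 (0.0551 to 0.102). Called here were 54.5% of all genes in WT (11% higher, 43.5% lower) and 57.5% in dKO (24.9% higher, 32.6% lower). The interaction of genotype and day called mt-Nd2 lower (-0.24 ± 0.07, adjusted p = 0.0163) and mt-Rnr1 (0.48 ± 0.08) and mt-Rnr2 (0.30 ± 0.07) higher, beside 26.1% of all genes (21.1% higher, 4.97% lower). With all 24 libraries both rRNA calls were lost (mt-Rnr1 0.31, adjusted p = 0.186; mt-Rnr2 0.21, adjusted p = 0.100), and with no filter that of mt-Nd2 was lost (adjusted p = 0.105). Of the tRNAs, mt-Ti (-1.88 ± 0.36, adjusted p = 0.000582) and mt-Tm (adjusted p = 0.0218) were lower and mt-Tp was higher (0.84 ± 0.26, adjusted p = 0.0181). The call of mt-Tp was lost in the unstranded column (adjusted p = 0.545), those of mt-Tp (0.0526) and mt-Tm (0.0675) without dKO male day 10 replicate 2, and that of mt-Tm also without dKO female day 10 replicate 1 (0.0854).

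Several mitochondrial mRNAs have near-identical nuclear copies, which limits what can be counted. 7 unprocessed pseudogenes lie in a row at chr1:24611535-24616197 on the - strand. Of the 50-base windows of each gene, the share found without a mismatch in an annotated nuclear transcript was 100% for mt-Co2, 99.9% for mt-Co3, 99.5% for mt-Atp6, 98.8% for mt-Nd4l and 98.0% for mt-Nd3. It was 62.2% for mt-Nd4, 51.1% for mt-Co1, 8.19% for mt-Nd2, 7.61% for mt-Nd5 and 1.04% for mt-Rnr2, and 0% for mt-Nd1, mt-Nd6, mt-Cytb, mt-Rnr1 and mt-Atp8. mt-Atp8 falls in a stretch between Gm28661 and Gm10925 that no annotated transcript covers, so its 0% does not show that it has no copy. The first 60 bases of mt-Co2 and of its copy Gm28661 (chr1:24614885-24615565) are shown. They are identical, so a read that lies wholly within them fits both genes. Some reads were still placed, with 67 to 327 counts per library for Gm28661.
mt-Co2: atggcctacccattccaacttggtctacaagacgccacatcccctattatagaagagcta
Gm28661: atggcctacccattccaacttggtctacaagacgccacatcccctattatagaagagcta
Aligned to their copies, mt-Nd3 and mt-Co1 each had 1 substitution, T3C in Gm28438 and A1066T in Gm29216, with positions counted from 1 at the 5′ end of the mitochondrial gene. Reads that map to several places were not counted and were 4.77 to 5.94% of reads. The 5 genes with nearly full copies were the lowest mRNAs per kilobase together with mt-Atp8, and their levels are uncertain. The levels per kilobase of mt-Nd4 and mt-Co1 are uncertain too, since they divide by the whole gene.

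**Figure D4:**
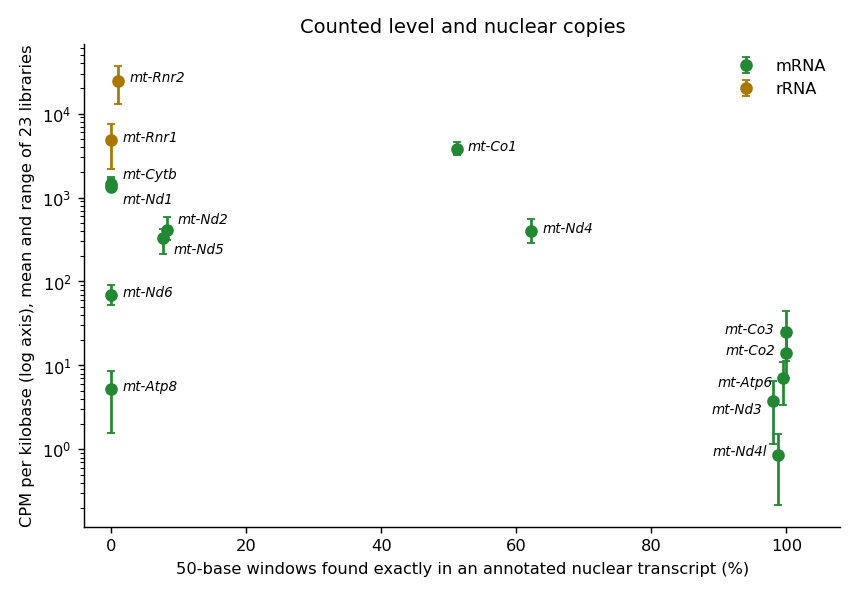
Mean level per kilobase (CPM, log axis; bars give the range of 23 libraries) of the mRNAs and rRNAs against the share of their 50-base windows found in a nuclear transcript (%). The 5 mRNAs with 98.0% or more lie at or below 24.9 CPM per kilobase, while mt-Co1 (51.1%) and mt-Nd4 (62.2%) lie at 3818 and 397.

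The copies themselves were at mean levels of 13.6 CPM (Gm29216, copy of mt-Co1), 10.8 CPM (Gm28437, of mt-Co3), 7.19 CPM (Gm28661, of mt-Co2), 6.76 CPM (Gm10925, of mt-Atp6), 2.27 CPM (Gm28439, of mt-Nd4), 1.39 CPM (Gm28438, of mt-Nd3) and 0.245 CPM (Gm10222, of mt-Nd4l). Over both sexes edgeR called no copy at day 20, with 1 (Gm28437) at an unadjusted p under 0.05 and values from -0.60 to -0.05. In day 20 males 5 of the 7 were called lower, beside 17.3% of all genes, among them Gm28438 (-1.07 ± 0.32, adjusted p = 0.0114) and Gm28437 (-0.58 ± 0.14, adjusted p = 0.00245). In females none was called or had an unadjusted p under 0.05, with Gm28438 at 0.42 ± 0.30. Gm28439 rose with day in WT (0.72 ± 0.20) and in dKO (0.69 ± 0.23). WT males at day 10 had more mt-Co2 than WT females (1.25 ± 0.22, adjusted p = 0.0209) and more mt-Atp6 (1.11 ± 0.19, adjusted p = 0.0117), where 0.0646% of all genes were called (0.0554% higher). mt-Co2 was at 13.9, 19.0 and 9.38 CPM in these males and at 4.83, 5.83 and 7.34 CPM in the females. Of the copies, only Gm28437, of mt-Co3, was called higher in the same males (0.74 ± 0.14, adjusted p = 0.0336). Those of mt-Co2 (Gm28661, 0.60 ± 0.17, adjusted p = 0.613) and mt-Atp6 (Gm10925, 0.95 ± 0.21, adjusted p = 0.134) were not called. At day 20 neither mt-Co2 nor mt-Atp6 was called between WT males and females (0.0508% of all genes called).

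mt-Nd6, a complex I subunit, is the only mRNA encoded on the other strand (chrM:13552-14070, - strand), so both strands were counted there. Its 3′ end overlaps that of mt-Nd5 (chrM:11742-13565) by 14 bases, marked in capitals in the last 30 bases of each gene, which are reverse complements of each other.
mt-Nd5: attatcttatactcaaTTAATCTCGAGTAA
mt-Nd6: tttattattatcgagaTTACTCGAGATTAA
On its own strand mt-Nd6 was at 26.9 to 47.4 CPM and on the opposite strand at 49.8 to 102 CPM, so 62.0 to 72.4% of the counts over the gene were antisense to it. For comparison, the strand opposite mt-Nd5 held 11.1 to 19.4% of the counts over that gene. The log2 ratio of opposite to own strand at day 20 was 1.14 ± 0.15 (SD, n = 6) in dKO and 1.05 ± 0.26 (SD, n = 6) in WT, which did not differ in an exact two-sided permutation test (p = 0.461). At day 10 it was 0.84 ± 0.14 (n = 5) and 0.94 ± 0.17 (n = 6), with an exact permutation p = 0.333. Between days it differed by 0.12 in WT (exact permutation p = 0.359) and by 0.31 in dKO (exact permutation p = 0.0152, 0.0606 after adjustment over the 4 comparisons). The smallest p these designs allow is 0.00216. The opposite-strand counts over mt-Nd6, fitted like the others, rose with day in WT (0.31 ± 0.10, adjusted p = 0.015) and had a value of -0.19 ± 0.09 between genotypes at day 20 (adjusted p = 0.162).

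**Figure D5:**
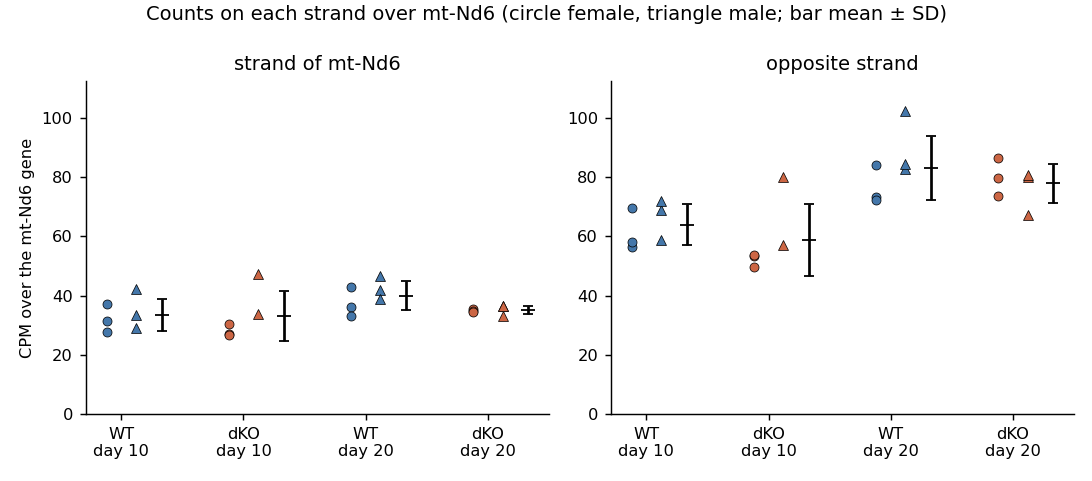
Counts on each strand over mt-Nd6 (CPM, linear axes from 0) by genotype and day; circles are females, triangles males, bars the mean ± SD. In all groups the opposite strand (49.8 to 102 CPM) is above the strand of mt-Nd6 (26.9 to 47.4 CPM), and the genotypes overlap.

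Of 72 tested nuclear subunits that assemble with these proteins, 43 were lower in dKO at day 20, 1 was higher (Atp5l) and 28 were not called, beside 19.2% of all genes lower and 18.8% higher. Their median was -0.19. By complex, 20 of 36 of complex I were lower, such as Ndufb2 (-0.58), Ndufab1 (-0.36), Ndufb3 (-0.37) and Ndufa11 (-0.31). For complex III 6 of 9 were lower (Uqcrb -0.38, Uqcr11 -0.36, Uqcrh -0.31, Uqcr10 -0.28), and for complex IV 6 of 11 (Cox6b1 -0.29, Cox5a -0.26, Cox7b -0.25, Cox6c -0.19). For ATP synthase 11 of 16 were lower (Atp5e -0.51, Atp5g1 -0.33, Usmg5 -0.32, Atp5k -0.40). In males 47 of 72 were lower, beside 17.3% of all genes. In females 4 of 72 were lower, near the 5.18% of all genes. At day 10 edgeR called 0 of 72 (0 at an unadjusted p under 0.05), with a median of 0.03. The nuclear and the mitochondrial mRNAs share these libraries, and no test of one list against the other was made.

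Genes that make, process and keep mitochondrial RNA had calls in both directions at day 20, to be read beside the 18.8% of all genes higher and 19.2% lower. Of 11 tested genes of mitochondrial DNA transcription, 2 were lower, Tfb1m, which methylates the small rRNA (-0.68 ± 0.13), and Mrpl12, a ribosomal protein that also binds the polymerase (-0.26), and 1 was higher, the RNA polymerase Polrmt (0.15). Of 24 genes of RNA processing and modification 8 were higher and 5 lower. The higher ones included Elac2, which cuts the 3′ end of tRNAs (0.32), the tRNA modifier Trmu (0.39), the pseudouridine synthase Rpusd3 (0.49) and Nsun3, which methylates the methionine tRNA (0.43). Of 17 genes of RNA stability, polyadenylation and decay 5 were lower, among them the small RNA exonuclease Rexo2 (-0.54), the mRNA-binding Slirp (-0.41), Fastkd2 (-0.41) and Ptcd2 (-0.26), and 4 were higher. The medians of these 3 lists were -0.0042, 0.06 and -0.03, beside -0.0003 over all genes, and no list was tested against the 38% of all genes called.

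Of 20 genes of mitochondrial DNA replication and nucleotide supply 4 were higher and 3 lower, near the 38% of all genes called at that day, beside which the next lists also stand; the thymidine kinase Tk2 was higher (0.53) and so was the single-strand binding protein Ssbp1 (0.41), while the exonuclease Mgme1 (-0.87) and the topoisomerase Top1mt (-0.46) were lower. Of 13 biogenesis regulators 4 were lower and 2 higher, with the coactivators Ppargc1b (-0.54) and Pprc1 (-0.28) and the transcription factor Creb1 (-0.54) lower and the coactivator Ppargc1a higher (0.20). Of 14 translation factors 6 were lower, such as the elongation factor Tufm (-0.61), the recycling factor Mrrf (-0.56) and Rmnd1 (-0.47), and 2 higher, among them the membrane insertase Oxa1l (0.26). Of 22 genes of import, chaperones and mitochondrial mass 6 were lower and 4 higher, including the chaperone Hspd1 (-0.38), citrate synthase Cs (-0.23), the fusion protein Mfn1 (0.32) and the import subunit Timm44 (0.45). Of 8 nuclear-retained RNAs 4 were higher, led by Neat1 (1.81), and 3 lower. At day 10 the calls in these lists were Ppargc1b (-0.31) and Esrra (-0.28) lower, Tomm70a (0.17) and Rian (0.35) higher and Malat1 lower (-0.37). The lists of transcription, processing, stability, replication and translation had no call at day 10 by edgeR, with 2, 2, 2, 4 and 0 members at an unadjusted p under 0.05.

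Markers of several cell types were called between genotypes at day 20, where 38% of all genes were called and 19.2% were lower. The summed level was 102 to 156 CPM in dKO and 175 to 209 CPM in WT for microglia (8 of 10 markers lower), and 217 to 276 against 302 to 315 CPM for endothelial cells (6 of 8 lower). It was 75.8 to 131 against 320 to 676 CPM for erythroid cells (6 of 6 lower), 218 to 513 against 509 to 662 CPM for choroid plexus (4 of 6 lower) and 12100 to 15467 against 15719 to 20463 CPM for oligodendrocytes (3 of 10 lower, a share closer to that of all genes). Neuron markers (1 of 10 lower), astrocyte markers (2 of 8 lower, 1 higher) and forebrain markers (1 of 7 lower) had few calls, and cerebellar granule (0 of 8, 1 at an unadjusted p under 0.05) and Purkinje cell markers (0 of 6, 0 unadjusted) had none by edgeR. No marker in these lists was at 0 in all libraries. At day 10, 4 of 10 oligodendrocyte markers were lower and 2 of 10 neuron markers and 1 of 7 forebrain markers higher, beside 1.76% of all genes lower and 3.23% higher, while the mitochondrial mRNAs had no call. Cerebellar markers had negative medians at day 10, granule -0.72 (0 of 8 called, 5 at an unadjusted p under 0.05 by edgeR) and Purkinje -0.78 (0 of 6 called, 5 unadjusted), and the forebrain median was 0.64 (5 of 7 unadjusted). Unmapped reads were 8.90 to 11.04% in dKO and 8.59 to 9.93% in WT at day 20. The part of cell makeup and library quality in the mitochondrial differences was not tested.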

How the data were processed

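For every library the authors deposited raw gene counts in 3 columns (unstranded, forward and reverse strand). STAR 2.5.2b, HTSeq and the build GRCm38.p5 are listed per the submitters' processing notes, with no role for either tool. Library type was TruSeq Stranded mRNA, per the labels' protocols. The reverse column was tested; the forward column served for mt-Nd6 and the unstranded one as an alternative. Gene symbols and positions came from GENCODE M21. The library called here dKO male day 10 replicate 3, with 45964 gene counts, was left out. edgeR 4.0.16 (filterByExpr, TMM, robust glmQLFit, 1 mean for each of 8 groups) in R 4.3.3 gave the tests, after a check on simulated data; limma 3.58.1 and DESeq2 1.42.0 were alternatives, beside other scalings, filters and left-out libraries. One count was worth 0.0224 to 0.109 CPM. Named were all mRNAs and rRNAs, the 3 most abundant tRNAs and those called between genotypes, the nuclear copies, and of each gene list up to 4 called members with the smallest p at day 20 and up to 2 at day 10. Members and lists were chosen with earlier results of these data known.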

Additional observations from a re-analysis of the deposited data

Results flagged for a closer look

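In 12 of 96 groups of libraries checked, 1 library lay far from the rest of its group; chance gives this in about 1 in 20 groups. In 9 of the 12 it was dKO male day 10 replicate 2, the library with few cerebellar and choroid plexus transcripts. It had the highest value among the 5 dKO libraries of day 10 for mt-Co1 (6513 CPM, the others 5016 to 5423), mt-Nd1 (1596 CPM, the others 1146 to 1242) and mt-Nd4 (584.6 CPM, the others 391.4 to 445.2). The same held for mt-Nd4l (0.3903 CPM, the others 0.1086 to 0.1707), mt-Rnr1 (3925 CPM, the others 2111 to 2615), mt-Rnr2 (34047 CPM, the others 20443 to 24361) and mt-Tw (3.624 CPM, the others 1.536 to 1.945). Its mitochondrial mRNAs were 1.213% of gene counts (the others 0.9533 to 1.015) and its rRNAs 3.896% (the others 2.436 to 2.829). Apart from it, WT female day 10 replicate 3 had the highest mt-Co1 of its group (6337 CPM, the others 5303 to 5681), WT male day 20 replicate 3 the highest mt-Co3 (25.83 CPM, the others 15.41 to 19.08) and dKO female day 20 replicate 1 the highest mt-Nd1 (1406 CPM, the others 1154 to 1248).

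The genotype difference changed between days, by the interaction test, for mt-Nd2 (-0.4247), mt-Cytb (-0.232), mt-Ti (-2.058) and mt-Tm (-3.236, a fitted value that depends on the prior count). The calls of mt-Cytb and mt-Tm were lost without dKO male day 10 replicate 2.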

How the results depend on the processing

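The count of mitochondrial mRNAs lower in dKO at day 20 ran from 4 to 6 over all settings tried and the count of higher ones was 0; at day 10 both counts were 0 throughout. With library size only, 3 mRNAs rose with day in WT, and in dKO 1 rose and 4 were lower. With all 24 libraries, the interaction of genotype and day called 1 mRNA lower. Relative to the summed mitochondrial mRNAs, day 20 dKO against WT had 1 mRNA lower with no filter, in the unstranded column and with all 24 libraries, and 2 higher with a mean of at least 1 CPM and with limma-voom. On the same scale the change with day in WT had 1 mRNA higher and the interaction 0 lower with no filter, and the change with day in dKO had 2 lower with DESeq2 and 0 with all 24 libraries. mt-Tp at day 20 turned from 0.44 to -0.05598 in the unstranded column. That column held 14527 counts of mt-Tp, beside 1383 on its own strand and 15162 on the opposite strand. The causes were not tested.

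Leaving out each library in turn gave 0 to 2 mRNAs lower with day in dKO (2 without dKO male day 20 replicate 3, and 1 without dKO female day 10 replicate 1 or dKO male day 10 replicate 1) and 1 to 4 lower in the interaction (4 without dKO male day 10 replicate 1 or WT female day 10 replicate 3, and 1 without dKO male day 10 replicate 2). Relative to the summed mRNAs the ranges were 1 to 2 higher and 1 to 2 lower for genotype at day 20, 1 to 2 lower for day in WT, 0 to 3 lower for day in dKO, and 0 to 1 higher for the interaction, so single calls on that scale are unsteady. Of 280 results for single transcripts, 229 kept their call under every alternative run. With 1 count worth 0.0224 to 0.109 CPM, depth limits the tRNAs, mt-Nd4l, mt-Nd3 and mt-Atp8 most. No paired analysis was possible because the labels carry no numbers that tie a library of one group to a library of another.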
